A study of Mus musculus with 11 samples.

Results

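Glutamate tRNAs carry glutamate to the ribosome and exist as 2 isoacceptors, which differ in the anticodon. The TTC anticodon reads the codon GAA and the CTC anticodon reads GAG. Both isoacceptors were chosen by name, as every row of the abundance tables whose entry is a glutamate tRNA. That gave 10 of 301 entries, 3 with the anticodon TTC and 7 with CTC. The amino acid had been picked from earlier results of these data. In those, the TTC entries stood higher with wild-type METTL1 than with empty vector. That comparison is therefore a description for glutamate, with no p-value printed and nothing read from its calls. The other comparisons each share a group with it, so their p-values for glutamate can be too small.

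METTL1, with its partner WDR4, methylates a guanosine (N7-methylguanosine, m7G) in the variable loop of some tRNAs. In mammals the TTC isoacceptor has a modified uridine at the wobble position, the base of the anticodon that pairs with the last base of the codon, and the Elongator complex takes part in making it. The CTC isoacceptor has a cytidine there. Lysine TTT, glutamine TTG and arginine TCT tRNAs also have a wobble uridine that depends on Elongator.

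The series used mouse embryonic fibroblasts, wild type and expressing SV40 T antigen, that had been stably transduced with pBabe vectors. The 3 groups were empty vector, wild-type METTL1 with WDR4, and a METTL1 labelled mutant with WDR4, with 2 input libraries each. Per the labels' protocols, the cells were kept under puromycin and G418 except during expansion, small RNA was first demethylated with AlkB enzymes, and input libraries skipped the chemical cleavage. The protocols call the lines stable clones without giving how many, and the labels do not name the change in the mutant. Of the 11 libraries, the 5 cleaved ones were not analysed here, nor was the level of METTL1 or WDR4.

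Abundance was given in RPM, which counts the reads of an entry per 1000000 tRNA reads of its library, so each value is a share. A higher share cannot be told apart from a lower amount of other tRNAs. The values imply 5405585 to 16003708 reads per library, of which 54232 to 188146 fell on glutamate entries. All 10 entries were above 0 in each library and entered every fit without a filter. The median SD between the replicates of an entry, on the log2(RPM + 1) scale, was 0.08 with empty vector, 0.06 with the wild type and 0.15 with the mutant, and for the glutamate entries 0.06, 0.04 and 0.14. The labels do not say whether the 2 libraries of a group came from separate cultures, and the p-values rest on that possibly technical spread alone.

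The genome holds many glutamate tRNA genes. RefSeq lists 20 nuclear ones on assembly GRCm38.p6, which is the build mm10 named in the submitters' processing notes, 8 with the anticodon TTC and 12 with CTC. All have a length of 72 bases, so RPM of different glutamate entries can be set side by side, if the entries have that length too. They lie on 10 chromosomes, with a cluster of 4 CTC genes, n-TEctc5 to n-TEctc8, on chromosome 1 between 171064164 and 171103114. Of the TTC genes, n-TEttc3 (chromosome 3, 96346675 to 96346746) and n-TEttc2 (chromosome 3, 96387405 to 96387476) lie close together. The numbers in the entry names of the tables were not paired with these genes, and no coordinate is given for an entry.

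Glutamate entries took 0.997% and 1.00% of the tRNA reads in the empty vector libraries 1 and 2. They took 1.33% and 1.36% with wild-type METTL1, and 1.16% and 1.00% with mutant METTL1. The wild-type libraries thus stood above the other 4, while the mutant libraries overlapped with empty vector. Of the mean difference between wild type and empty vector, 3464 RPM, the 3 TTC entries made up 76.5% and the 7 CTC entries 23.5%. The entries spanned a wide range of levels, with group means from 0.496 RPM for GluCTC14 to 3779 RPM for GluTTC27, and the most abundant entries of both isoacceptors overlapped in level.

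**Figure D1:**
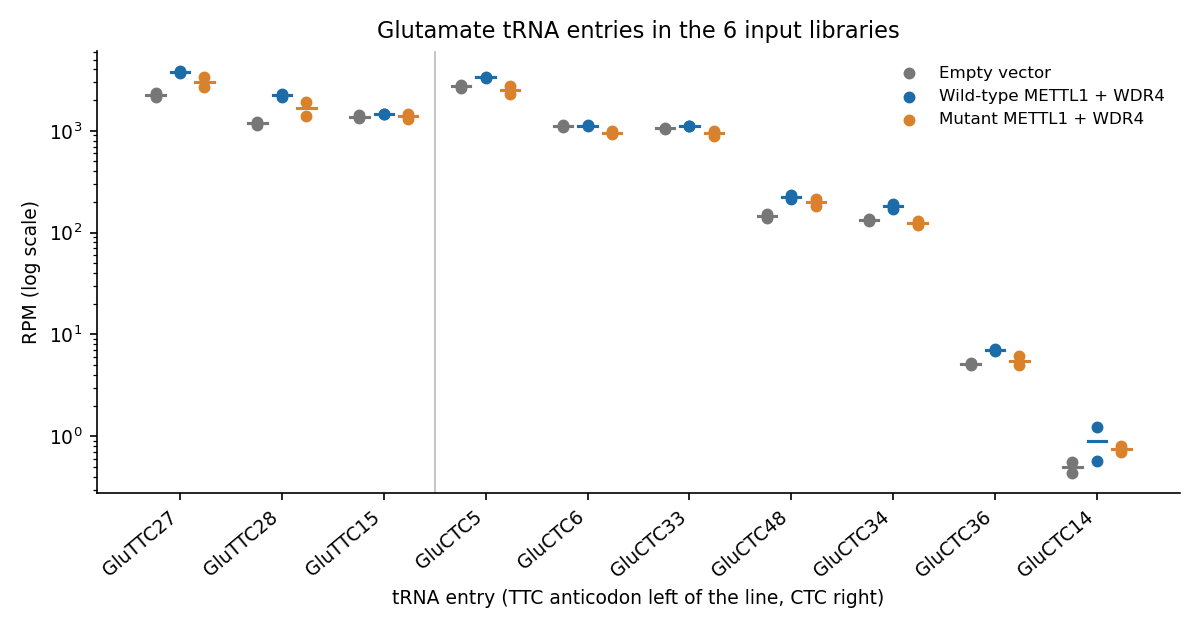
RPM (log axis) of the 10 glutamate entries in each of the 6 input libraries; points are libraries and short lines are group means, with 2 libraries for each construct. GluTTC27 and GluTTC28 are ordered empty vector, mutant, wild type without overlap, while GluTTC15 lies between 1307 and 1461 RPM in all 6 libraries.

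Among the TTC entries, GluTTC27 was the most abundant, with 2367 and 2135 RPM in the empty vector libraries, then 3683 and 3875 RPM with the wild type, and 3382 and 2708 RPM with the mutant. The 3 groups did not overlap, with empty vector lowest and wild type highest. GluTTC28 had the same order, again without overlap, at 1218 and 1145 RPM in the controls, 2169 and 2283 RPM with the wild type, and 1907 and 1404 RPM with the mutant. In both entries mutant library 1 was the higher mutant library and came near the wild-type values.

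GluTTC15 carries the same anticodon and was set apart from these. It measured 1324 and 1432 RPM in the empty vector controls, 1451 and 1461 RPM with the wild type, and 1455 and 1307 RPM with the mutant. The mutant libraries lay on either side of the empty vector values, and the wild-type libraries were above empty vector by less than the gap between its 2 libraries. GluTTC28 amounted to 0.920 and 0.799 of GluTTC15 in the empty vector libraries, to 1.495 and 1.56 with wild-type METTL1, and to 1.31 and 1.075 with mutant METTL1. This ratio within a library does not depend on the scaling of the library. GluTTC27 and GluTTC28 kept a ratio of 1.70 to 1.94 over all 6 libraries, the narrowest range among the 3 TTC pairs.

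Of the CTC entries, GluCTC5 was the most abundant. It stood at 2645 and 2821 RPM in the controls, 3324 and 3394 RPM with the wild type, and 2725 and 2291 RPM with the mutant. Here the wild-type libraries were above all others, and the mutant libraries overlapped with empty vector. GluCTC34, far less abundant, had this pattern too, at 130 and 136 RPM in the controls, 190 and 172 RPM with the wild type, and 131 and 118 RPM with the mutant.

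GluCTC6 and GluCTC33 made a second pattern. GluCTC6 measured 1095 and 1136 RPM in the controls, 1137 and 1109 RPM with the wild type, and 920 and 994 RPM with the mutant. GluCTC33 measured 1046 and 1071, 1116 and 1104, and 895 and 989 RPM in the same order. Both mutant libraries were below the other 4 in both entries, and wild type overlapped with empty vector in GluCTC6. The ratio of these entries lay between 1.005 and 1.061 in all 6 libraries, so they may share reads and may not be separate measurements.

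GluCTC48 followed neither pattern. It measured 140 and 151 RPM in the controls, 235 and 213 RPM with the wild type, and 215 and 183 RPM with the mutant. All 4 METTL1 libraries were above both empty vector libraries, and the constructs overlapped. Across the 6 libraries its log2 level had a Pearson correlation of 0.93 with GluTTC27 and 0.94 with GluTTC28. The correlation was −0.23 with GluCTC6, 0.62 with GluCTC34 and 0.82 with GluCTC36. The rare GluCTC36 had 0.93 with GluTTC27 and 0.96 with GluTTC28, so this likeness is not particular to GluCTC48. These correlations are a description over 6 libraries, which share 3 constructs and the scaling of each library.

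The 2 remaining CTC entries were rare. GluCTC36 measured 5.19 and 4.99 RPM in the controls, 6.94 and 7.24 RPM with the wild type, and 6.09 and 4.98 RPM with the mutant, from an implied 27 to 100 reads. GluCTC14 rested on an implied 3 to 17 reads per library, and its 95% exact Poisson interval, which covers counting error only, ran from 0.115 to 1.62 RPM in empty vector library 2 and from 0.717 to 1.97 RPM in wild-type library 2. All 4 METTL1 libraries were above both empty vector libraries for GluCTC14, but the counting intervals of all 6 libraries overlap, and its place in the counts of non-overlapping entries given below rests on those few reads.

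Wild-type METTL1 against empty vector is the comparison in which the TTC entries had drawn notice, so its values are given as a description. The log2 difference was 0.91 (SE 0.09) for GluTTC28, 0.75 (SE 0.09) for GluTTC27 and 0.08 (SE 0.09) for GluTTC15. For the CTC entries it was 0.62 (SE 0.11) for GluCTC48, 0.44 (SE 0.11) for GluCTC34, 0.41 (SE 0.17) for GluCTC36, 0.32 (SE 0.25) for GluCTC14 and 0.30 (SE 0.08) for GluCTC5. GluCTC33 had 0.07 (SE 0.09) and GluCTC6 had 0.01 (SE 0.09). By rank, GluTTC28 was at place 9 and GluTTC27 at place 20 of 301 entries, and GluTTC15 at place 179.

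The median log2 difference was 0.37 for the 10 glutamate entries and 0.16 for all 301 entries. When each library was centred on its median entry outside glutamate, which lowers the median of all entries by 0.14, GluTTC28 had 0.77 and GluTTC27 0.61. GluTTC15, GluCTC6 and GluCTC33 then turned to −0.06, −0.13 and −0.07, so no direction is given for them. Limma called 5 of 10 glutamate entries higher at a Benjamini-Hochberg (BH) adjusted p under 0.05 over all entries and 0 lower, against 30.2% higher and 7.31% lower among all entries. An unadjusted p under 0.05 was reached by 6 of the 10. In 9 of 10 entries both wild-type libraries were above both empty vector libraries, against 49.5% of all entries, and in 0 of 10 both were below, against 15.0%. As the amino acid was picked on this comparison, nothing is read from these counts. Those called were GluTTC27, GluTTC28, GluCTC5, GluCTC34 and GluCTC48, and without wild-type library 1 the calls of GluCTC5 and GluCTC34 were lost, leaving 3. The GluCTC5 call was also lost without wild-type library 2, at 0.28, and under centring, at 0.16.

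**Figure D2:**
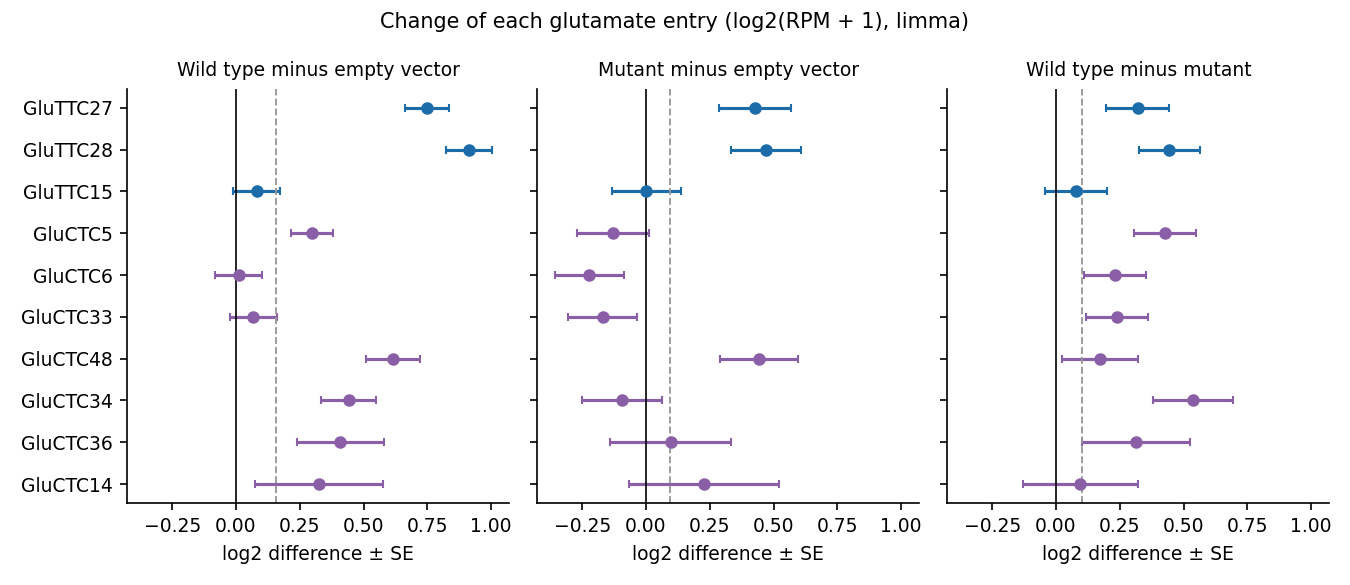
Log2 difference of each glutamate entry between constructs, from limma on log2(RPM + 1), with bars of ± 1 SE and 2 libraries in each group; blue is TTC, purple CTC, and the dashed line is the median of all 301 entries. GluTTC27, GluTTC28, GluCTC48 and GluCTC36 lie right of the dashed line in all 3 panels. For GluCTC36 this is only just so in mutant minus empty vector (0.097 against 0.094). GluTTC15 lies near 0, where its sign against empty vector turns under centring.

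Mutant METTL1 against empty vector uses the same empty vector libraries. Its values are therefore not independent of those above or of how the amino acid was picked. GluTTC28 rose, with a log2 difference of 0.47 (SE 0.14, limma BH-adjusted p = 0.012), as did GluTTC27 with 0.43 (SE 0.14, limma BH-adjusted p = 0.035) and GluCTC48 with 0.44 (SE 0.15, limma BH-adjusted p = 0.045). All 3 entries were higher in 2 of 2 mutant libraries than in both empty vector libraries. All 3 were lost without empty vector library 1, without empty vector library 2 or without mutant library 1, where the values ran from 0.25 to 0.52, and with centring, where they were 0.32, 0.28 and 0.30. They were also lost without the variance trend (limma BH-adjusted p 0.12 to 0.16), and GluCTC48 with a pseudocount of 10 (limma BH-adjusted p = 0.090). Centring left 0 calls among all entries of the series, so that loss is not particular to glutamate. With the trend, limma drew the SE of an entry largely from entries of similar level. GluTTC28 and GluTTC15 thus had the same SE of 0.14, with mutant SDs of 356 and 105 RPM.

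The other 7 entries were not called in this comparison. GluCTC6 had a log2 difference of −0.22 (limma BH-adjusted p = 0.40), GluCTC33 −0.17 (0.60), GluCTC5 −0.13 (0.71) and GluCTC34 −0.10 (0.77). GluTTC15 had 0.00 and GluCTC36 0.10, and both turned below 0 under centring, while GluCTC14 had 0.23. In all, 3 of 10 glutamate entries were called higher and 0 lower, against 7.31% higher and 0.997% lower among all 301 entries. The 3 called entries moved together over the libraries, with Pearson correlations of 0.93 to 0.995 between them. They may therefore not be 3 separate results to set against those shares. In 4 of 10 entries both mutant libraries were above both empty vector libraries, against 32.2% of all entries. In 2 of 10, GluCTC6 and GluCTC33, both were below, against 15.9%. The median log2 difference was 0.05 for the glutamate entries and 0.09 for all entries.

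Wild-type and mutant METTL1 were compared directly, with the wild-type libraries that were already used above and in picking the amino acid. GluCTC34 was higher with wild type, with a log2 difference of 0.54 (SE 0.16, limma BH-adjusted p = 0.0078), as were GluTTC28 with 0.44 (SE 0.12, limma BH-adjusted p = 0.0036) and GluCTC5 with 0.43 (SE 0.12, limma BH-adjusted p = 0.0068). The wild-type libraries were above both mutant libraries in these 3 entries. These calls were lost without either wild-type library, with differences of 0.41 to 0.61, and under centring, with 0.54, 0.45 and 0.43 (limma BH-adjusted p 0.11 to 0.24). The GluTTC28 difference was 0.66 without mutant library 1 and 0.22 without mutant library 2. Here too the SE came largely from entries of similar level, at 0.12 for both GluTTC28 and GluTTC15. The median SD between the mutant replicates was 0.23 for the TTC entries and 0.15 for all entries.

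GluTTC27 had 0.32 (SE 0.12, limma BH-adjusted p = 0.064), and the difference was 0.48 without mutant library 1 and 0.16 without mutant library 2. GluCTC6 had 0.23 and GluCTC33 0.24 (limma BH-adjusted p = 0.21 and 0.19). GluCTC48, with 0.17 (95% interval −0.12 to 0.46), and GluTTC15, with 0.08 (−0.16 to 0.31), were not called, which does not show that the constructs gave equal levels. In all, 3 of 10 were called higher and 0 lower, against 11.3% and 3.65% of all entries. Centring left 0 of the 10 called, and among all entries 0 higher and 2 lower. Without mutant library 2 the difference was 0.29 for GluCTC6 and 0.31 for GluCTC33, and without mutant library 1 it was 0.18 and 0.17. In 7 of 10 both wild-type libraries were above both mutant libraries, against 43.2%, and in 0 of 10 below, against 15.3%. The median log2 difference was 0.28 for the glutamate entries and 0.10 for all entries.

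The isoacceptors were then compared by their summed RPM, which does not depend on how reads that fit several entries of an anticodon were divided among them. The TTC sum was 4909 and 4712 RPM in the controls, 7302 and 7619 RPM with the wild type, and 6744 and 5419 RPM with the mutant. The CTC sum was 5062 and 5320, 6010 and 6000, and 4892 and 4582 RPM in the same order. The TTC sum was thus ordered empty vector, mutant, wild type without overlap, while the CTC sum had the mutant lowest, again without overlap. Non-overlap was common among all entries, as given above, and was not counted over families. Set against the controls as levels, both sums were higher with wild type. With the mutant the TTC sum was higher and the CTC sum lower. Centring of the sums used the median family outside glutamate, not the median entry, and turned none of these signs. It moved the log2 difference of the CTC sum from 0.21 to 0.22 with wild type and from −0.13 to −0.09 with the mutant. The downward shift of the entries was thus not applied to the sums.

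Over the 54 anticodon families, the log2 difference between wild type and empty vector was 0.63 (SE 0.10) for TTC, at place 2 by rank, and 0.21 (SE 0.10) for CTC, at place 17. The call rule was met by 22.2% of families in the higher direction, TTC among them and CTC not, and since the amino acid was picked on this comparison nothing is read from that. For mutant against empty vector the TTC sum had 0.33 (SE 0.14, 95% interval 0.05 to 0.61, limma BH-adjusted p = 0.27) and the CTC sum −0.13 (SE 0.14, 95% interval −0.41 to 0.15, limma BH-adjusted p = 0.60), with 3.70% of families called higher. Neither mutant sum passed. Without mutant library 1 the TTC sum had 0.17, and without mutant library 2 the CTC sum had −0.09. For wild type against mutant the TTC sum had 0.30 (SE 0.12, limma BH-adjusted p = 0.063) and the CTC sum 0.34 (SE 0.12, limma BH-adjusted p = 0.059), just short of the threshold, with 3.70% of families called higher. With 1 library left out, the TTC sum ranged from 0.15 to 0.46 and the CTC sum from 0.30 to 0.39. Neither sum passed in the 7 alternatives that kept all libraries. There the limma BH-adjusted p ran from 0.081 to 0.36 for TTC and from 0.056 to 0.31 for CTC.

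The ratio of the TTC to the CTC sum, taken within each library, was 0.970 and 0.886 in empty vector. It was 1.21 and 1.27 with wild-type METTL1, and 1.38 and 1.18 with mutant METTL1. CTC was thus the larger sum in both empty vector libraries and TTC the larger in all 4 METTL1 libraries, and the constructs overlapped. On the log2 scale the ratio was 0.42 higher with wild type than with empty vector, given as a description. It was 0.46 higher with the mutant (two-sided exact permutation p = 0.33, the smallest that 2 against 2 libraries allow, BH-adjusted 0.67 over 2 tests). Wild type and mutant differed by −0.04 (two-sided exact permutation p = 1, BH-adjusted 1), and this sign turned without mutant library 1 (0.07). Both sums were nevertheless lower in the mutant libraries than in the wild-type libraries.

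**Figure D3:**
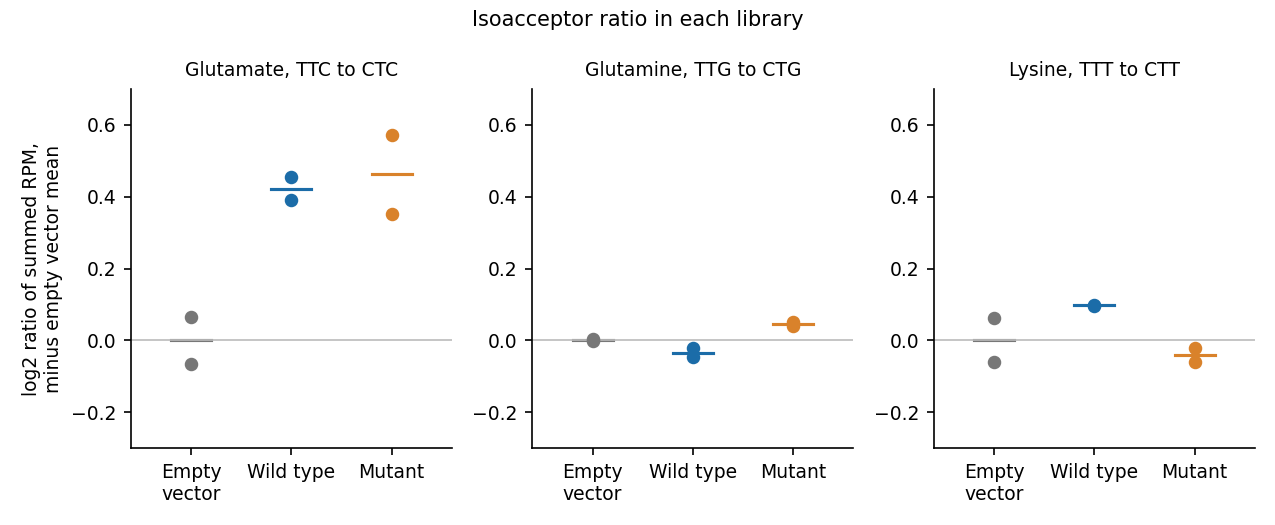
Log2 ratio of summed RPM of 2 isoacceptors of an amino acid, minus its empty vector mean; points are the 2 libraries of each construct and short lines are means. The 4 METTL1 libraries lie above both empty vector libraries for glutamate, at group means of 0.42 and 0.46, while the glutamine and lysine means lie within 0.10 of 0. Non-overlap with empty vector also holds for glutamine with each construct and for lysine with wild type.

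Glutamine and lysine are the other amino acids whose codons are a single pair ending in A or G, and the same ratio was taken for them. The glutamine ratio of TTG to CTG was 0.801 and 0.798 in empty vector, 0.7745 and 0.788 with wild-type METTL1, and 0.822 and 0.829 with mutant METTL1. The lysine ratio of TTT to CTT was 0.09805 and 0.107, 0.110 and 0.109, and 0.101 and 0.0982 in the same order. Their log2 differences from empty vector were −0.03 and 0.10 with wild type and 0.05 and −0.04 with the mutant. These are smaller in size than those of glutamate, and the difference between amino acids was not tested. Non-overlap was not particular to glutamate. The glutamine ratio did not overlap between any of the groups, wild type and mutant included. The lysine ratio did not overlap between wild type and empty vector, or between wild type and mutant.

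The other families taken for a wobble uridine that depends on Elongator were LysTTT, GlnTTG and ArgTCT. Against empty vector, LysTTT had 4 of 5 entries called higher with wild-type METTL1 and 0 of 5 with mutant METTL1. Among all entries the shares were 30.2% and 7.31%. GlnTTG had 0 of 7 in each, and ArgTCT 1 of 6 and 2 of 6. LysCTT, which has a cytidine at the wobble position, had 18 of 22 and 2 of 22, and GlnCTG, likewise with a cytidine, had 1 of 6 and 0 of 6. No entry of these 5 families was called lower in those comparisons. In summed RPM, LysTTT had a log2 difference of 0.35 with wild type and −0.01 with the mutant, GlnTTG −0.07 and 0.14, and ArgTCT 0.12 and 0.25, beside 0.63 and 0.33 for GluTTC. With wild type, the LysTTT sum was called higher and the GlnTTG and ArgTCT sums were not, and with the mutant none of these sums, GluTTC included, was called.

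AspGTC reads the aspartate codons, which fill the other part of the codon box of glutamate. Its sum had a log2 difference of 0.62 with wild type and 0.56 with the mutant against empty vector (limma BH-adjusted p = 0.0037 for the mutant), and 4 of 4 entries were called higher in each, beside 30.2% of all entries with wild type and 7.31% with the mutant. The ratio of GluTTC to AspGTC was 0.671 and 0.678 in empty vector, 0.710 and 0.649 with wild type, and 0.577 and 0.571 with the mutant. GluTTC thus kept its proportion to AspGTC with wild type within the spread of those libraries, and was lower relative to AspGTC in both mutant libraries. For these ratios the exact permutation p of 2 against 2 libraries cannot fall below 0.33, so the test decides nothing. The ratio of GluCTC to AspGTC was 0.692 and 0.765 in empty vector and lower in all 4 METTL1 libraries, at 0.585 and 0.511 with wild type and 0.418 and 0.483 with the mutant.

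Within each isoacceptor, the make-up by entry was also measured. GluTTC15 made up 27.0% and 30.4% of the TTC sum in empty vector, 19.9% and 19.2% with wild-type METTL1, and 21.6% and 24.1% with mutant METTL1. GluTTC28 went the other way, with 24.8% and 24.3% in empty vector, 29.7% and 30.0% with wild type, and 28.3% and 25.9% with the mutant. Both were non-overlapping between empty vector and each construct, which was not counted for the shares of other tRNAs. In the CTC sum, GluCTC48 made up 2.77% and 2.84% in empty vector, 3.91% and 3.55% with wild type, and 4.40% and 3.99% with the mutant. GluCTC5 held between 50.0% and 56.6% in all 6 libraries, with mutant library 2 lowest.

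**Figure D4:**
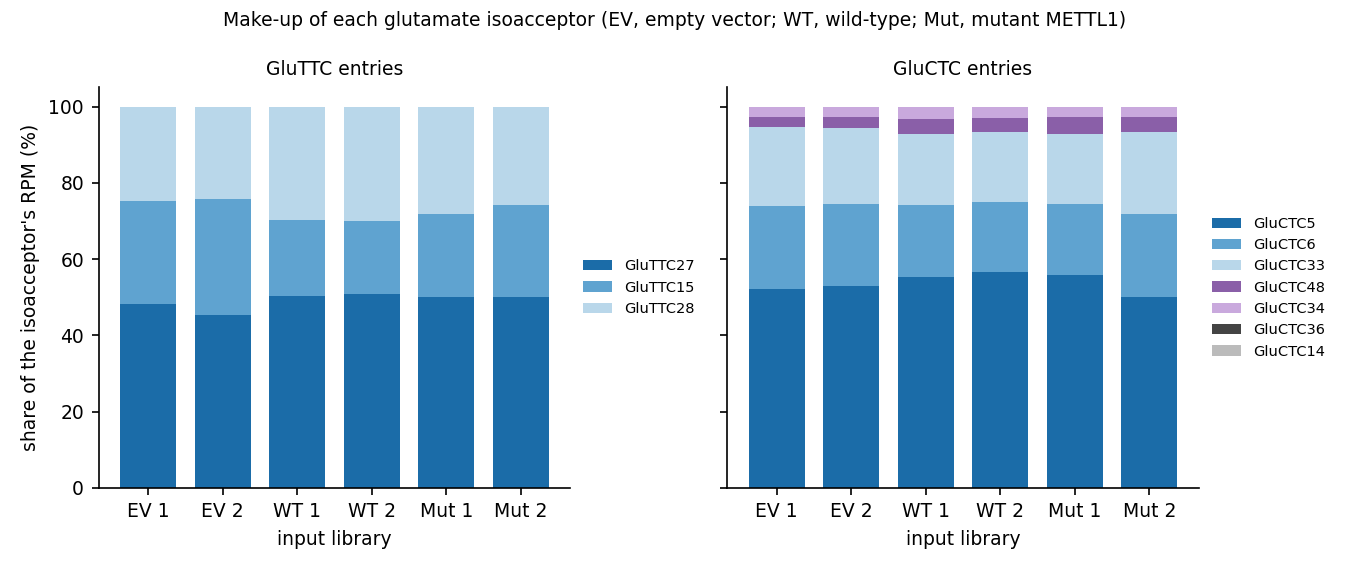
Share of each entry in the summed RPM of its isoacceptor, in percent, for each of the 6 input libraries. GluTTC15 takes 27.0% and 30.4% of the TTC sum in the empty vector libraries and 19.2% to 24.1% in the 4 METTL1 libraries, and GluCTC36 and GluCTC14 are too rare to be seen.

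Among 235 entries outside glutamate with a mean of at least 10 RPM, those most like the TTC sum over the 6 libraries were, with 1 per family and by Pearson correlation of log2 values, CysGCA99 (0.99), GlyTCC15 (0.98), LysCTT100 (0.96), MetCAT22 (0.94) and LysTTT34 (0.94). Those most like the CTC sum were GlnCTG6 (0.97), LysCTT104 (0.97), AsnGTT683 (0.93), CysGCA37 (0.91) and LysTTT28 (0.90). The 2 glutamate sums had a correlation of 0.59 with each other. CysGCA, LysCTT and LysTTT entries are in both lists. Over 6 libraries in 3 groups such values are a description only.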

How the data were processed

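The authors deposited 2 tables, 1 per METTL1 construct, with 301 tRNA entries, and the empty vector columns are the same in both. Their RPM columns, scaled by the authors to 1000000 reads over tRNA entries in each library, are the values used. Trim Galore, Bowtie, bedtools and mm10 are named in the submitters' processing notes, and the handling of reads matching more than 1 tRNA gene was not given in the sources used. All 301 values of each library are whole multiples of the value of 1 read (tolerance 0.01 reads). This gave the implied depths and read numbers, which assume that the smallest step is 1 read. Too few low values were present to check that assumption fully, so no count test was run and the Poisson intervals rest on it.

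RPM was transformed to log2(RPM + 1) without a filter. Each comparison was fitted with limma 3.58.1 (R 4.3.3) on its own 4 libraries, with a variance trend, over all entries or over summed RPM of 54 anticodon families. The BH method was applied over all of these, and an adjusted p under 0.05 was called. The fit was tested on simulated data in which all entries of a group had the same SD, the group median, beside counting error. It therefore does not cover entries with a wider spread between replicates. Ratios used exact permutation tests (scipy 1.17.1), with BH applied only over 2 tests of the TTC to CTC ratio. Alternatives were pseudocounts of 0.1 and 10, a minimum mean of 10 RPM, a common fit, no trend, centring, a replicate block and leaving out each library.

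All glutamate entries are named. Other families were AspGTC, and LysTTT, GlnTTG and ArgTCT, taken for a wobble uridine that also depends on Elongator. LysCTT and GlnCTG were added for the isoacceptor ratios. The 5 most correlated entries were named for each isoacceptor. Members, lists and tests were chosen with earlier results of these data known.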

Additional observations from a re-analysis of the deposited data

How the results depend on the processing

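Pairs of libraries with the same replicate number did not deviate together (correlations of replicate differences of 0.09, −0.12 and −0.05 over 301 entries), so they share only a number. With replicate number as a block, 0 glutamate entries were called for mutant against empty vector, against 3 without the block, and the counts of the other comparisons did not move (5 for wild type against empty vector and 3 for wild type against mutant). Among all 301 entries, the block gave 12 higher and 1 lower for mutant against empty vector, against 22 and 3 without it. For wild type against mutant it gave 20 and 5, against 34 and 11. For mutant against empty vector the glutamate count was also 0 without the variance trend and under centring, and for wild type against mutant 0 under centring against 3. Among all entries, centring left 0 calls for mutant against empty vector. It left 0 higher and 2 lower for wild type against mutant. Without the trend, 17 of all entries were higher and 1 lower for mutant against empty vector. Leaving out 1 library left 1 library in a group. The number of calls then moved both for glutamate and for all 301 entries, so nothing is read from it. The Glu-TTC and Glu-CTC sums for wild type against mutant ranged from 0.15 to 0.46 and from 0.30 to 0.39 when 1 library was left out. Neither sum was called in the 7 other alternatives. The isoacceptor log2 ratio was 0.27 for wild type and 0.28 for mutant against empty vector when means of log2 values over entries replaced sums. For wild type against mutant it was 0.038 without the most abundant entry of each anticodon, and −0.15 to 0.071 with 1 library left out. Single entries near 0 changed sign. Under centring these were GluTTC15 (−0.061), GluCTC6 (−0.13) and GluCTC33 (−0.073) for wild type and GluTTC15 (−0.14) and GluCTC36 (−0.050) for mutant against empty vector. With 1 library left out they were GluCTC6 (−0.017 to 0.037) for wild type against empty vector, GluTTC15 (−0.075 to 0.079) and GluCTC36 (−0.025 to 0.22) for mutant against empty vector and, for wild type against mutant, GluCTC14 (−0.16 to 0.35). The causes were not tested. The count tests foreseen were not run.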
